A study of Mus musculus with 18 samples.

Results

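The genes described here control passage through the G1 phase of the cell cycle in mouse embryonic stem (ES) cells. They are 6 cyclin genes (Ccnd1, Ccnd2, Ccnd3, Ccne1, Ccne2 and Ccna2) and 4 genes for inhibitors of cyclin-dependent kinases (Cdkn1b, Cdkn2a, Cdkn2b and Cdkn2c). They were taken by symbol from a table of nascent transcription over 21859 protein-coding genes, and all 10 were found there. The matching promoter upstream transcripts (PROMPTs), made from the same promoters but in the opposite direction, were taken by the same symbols from a table of 32253 PROMPTs, in which every gene but Ccnd2 had 1 entry, giving 9.

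The study used transient transcriptome sequencing (TT-seq), in which new RNA is labeled by a pulse of 4-thiouridine, here for 5 min, and then captured and sequenced. It asked how transcription depends on SPT16, a subunit of the histone chaperone FACT. There were 6 conditions with 3 libraries each, 18 in all. E14 ES cells, grown without feeders in medium with LIF and inhibitors of GSK3 and MEK, carried osTIR1 in every condition. The untagged line had no degron on SPT16, while SPT16_AID_V5_Clone1 and SPT16_AID_V5_Clone2 carried an auxin-inducible degron and V5 tag on it. Each line received ethanol (EtOH) or the auxin 3-IAA for 24 h, and only in the tagged clones could 3-IAA deplete SPT16. Each tagged line is 1 clone, and its 3 libraries are technical repeats.

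The level analyzed was the authors' base mean: read counts divided by DESeq2 size factors and averaged over libraries, in units here termed pooled normalized reads. Control and SPT16-depleted libraries are mixed in this mean. It has no value per library, no spread and no depth per library, so no level below carries an error, no difference between genes was tested, and nothing is stated on the effect of SPT16 depletion. Levels of different genes were compared only per kb of exon, with per kb of gene span beside the comparisons that turn on it. Over the 15428 genes with at least 10 pooled normalized reads, the log10 level rose with a slope of 0.99 on log10 exon length and of 0.094 on log10 span when both lengths entered 1 fit, and exon length was kept as the first scale.

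The D-type cyclins bind CDK4 and CDK6 in response to growth signals and begin the phosphorylation of the retinoblastoma protein, which frees E2F factors to switch on genes of S phase. E-type cyclins with CDK2 carry this further, and cyclin A2 acts with CDK2 and CDK1 through S phase and G2. INK4 inhibitors block CDK4 and CDK6, whereas CIP/KIP inhibitors such as p27 bind cyclin-CDK complexes, above all those with CDK2. ES cells are known for a short G1 phase and for E-type cyclin activity that is high through the whole cycle. Neither trait was measured here, in cells grown with inhibitors of GSK3 and MEK.

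Levels were read against those of all genes. Among the 20140 genes with a level above 0 and a known length, the median was 120 pooled normalized reads per kb of exon, with quartiles of 4.76 and 638. By this scale 8 of the 10 genes lay above the median and 4 (Ccne1, Ccna2, Ccnd3 and Cdkn2a) lay above the upper quartile. The other 4 above the median were Ccne2, Ccnd1, Cdkn1b and Cdkn2b, and the pair below it was Cdkn2c and Ccnd2. The highest, Ccne1, stood 338-fold above the lowest, Ccnd2. Per kb of span 8 genes also lay above the median, and the highest, Ccna2, stood 515-fold above Ccnd2. All 10 genes together held 0.0353% of the summed level of the gene table.

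**Figure D1:**
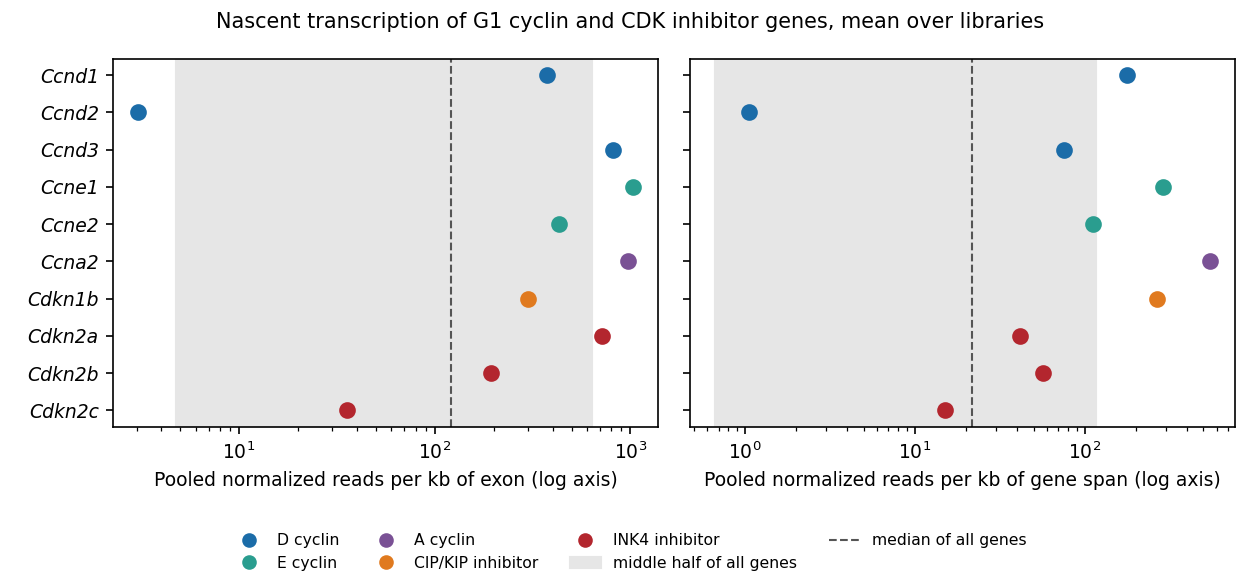
Pooled nascent transcription of the 10 genes on a log axis, in pooled normalized reads per kb of exon and per kb of gene span; colors mark the roles, dashed lines the medians of all genes on each scale and gray bands the range between the quartiles. Ccne1, at 1031 per kb of exon, was the highest, and Ccnd2, at 3.05, lay far below the other 9 on either scale; no error bars are drawn, because each value is 1 mean over control and SPT16-depleted libraries.

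Of the D-type cyclins, Ccnd3 and Ccnd1 were well transcribed and Ccnd2 was close to silent. Ccnd3 (cyclin D3; ENSMUSG00000034165, chr17:47505051-47599691 on the plus strand of GRCm38) had 7123 pooled normalized reads, or 812 per kb of exon, above 79.6% of genes. Ccnd1 (cyclin D1; ENSMUSG00000070348, chr7:144929931-144939925, minus strand) had 1769, or 376 per kb of exon, above 65.5% of genes. Ccnd2 (cyclin D2; ENSMUSG00000000184, chr6:127125162-127152193, minus strand) had 28.7, or 3.05 per kb of exon, above only 22.2% of genes. Ccnd1 thus exceeded Ccnd2 123-fold per kb of exon and 167-fold per kb of span.

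The order of Ccnd3 and Ccnd1 depended on the length used. Per kb of exon Ccnd3 was 2.16-fold above Ccnd1, but per kb of gene span Ccnd1, at 177, was 2.35-fold above Ccnd3, at 75.3. Ccnd3 spans 94641 bases in the annotation and Ccnd1 9995, while their exons cover 8775 and 4709 bases. The annotation gives Ccnd3 21 transcripts, and the RefSeq promoter table lists starts 88416 bases apart for it. Which start was used cannot be read from 1 level per gene.

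The E-type cyclins, the partners of CDK2 at the G1/S transition, both lay above the gene median. Ccne1 (cyclin E1; ENSMUSG00000002068, chr7:38097984-38107534, minus strand) had 2745 pooled normalized reads, or 1031 per kb of exon, above 83.8% of genes. Ccne2 (cyclin E2; ENSMUSG00000028212, chr4:11191351-11204779, plus strand) had 1503, or 430 per kb of exon, above 67.8% of genes. Ccne1 exceeded Ccne2 2.40-fold per kb of exon and 2.57-fold per kb of span, so this order held on both scales.

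Ccna2 (cyclin A2; ENSMUSG00000027715, chr3:36564865-36572150, minus strand) had 3982 pooled normalized reads, or 975 per kb of exon, above 82.8% of genes. It lay 1.06-fold below Ccne1 per kb of exon, whereas per kb of span it was the highest of the 10, at 547, above 97.5% of genes and 1.90-fold above Ccne1. With no spread for either gene, the order of these neighbors is not settled.

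The CIP/KIP inhibitor Cdkn1b (p27; ENSMUSG00000003031, chr6:134920401-134925513, plus strand) had 1363 pooled normalized reads. That was 299 per kb of exon, above 61.7% of genes, and 267 per kb of span, above 91.7% of genes. Its exons cover 4552 of the 5113 bases of its span, so its level changed little between the scales while its rank among all genes moved.

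The INK4 inhibitors were spread over a wide range. Cdkn2a (ENSMUSG00000044303, chr4:89274471-89294653, minus strand) makes the CDK inhibitor p16INK4a from a downstream start and ARF, which acts on the p53 pathway, from an upstream one. It had 836 pooled normalized reads, or 714 per kb of exon, above 77.1% of genes. Its neighbor Cdkn2b (p15INK4b; ENSMUSG00000073802, chr4:89306299-89311039, minus strand), 11645 bases away, had 270, or 194 per kb of exon, above 55.4% of genes. Cdkn2c (p18INK4c; ENSMUSG00000028551, chr4:109660876-109667189, minus strand) had 95.5, or 35.6 per kb of exon, above 39.1% of genes.

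Per kb of exon Cdkn2a stood 3.67-fold above Cdkn2b and 20.1-fold above Cdkn2c. Per kb of span Cdkn2b, at 57.0, was 1.38-fold above Cdkn2a, at 41.4, and Cdkn2c remained the lowest of these inhibitors, at 15.1. The exons of Cdkn2a cover 1172 bases of a span of 20183, and those of Cdkn2b 1390 of 4741. Since 1 value covers the whole Cdkn2a gene, reads from the p16INK4a and the ARF transcript cannot be told apart in it.

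The promoters of this locus are shown because the PROMPT levels described next differed most between Cdkn2a and Cdkn2b, and that of Ccne1 because Ccne1 was the most transcribed gene per kb of exon and had the lowest PROMPT level of the cyclins with an entry. The sequences are from RefSeq on GRCm38.p6, read 5′ to 3′ on the minus strand, which is the gene's strand, and stop where annotated exons begin. Capitals mark matches to the motifs named further on. The stretch before the ARF start of Cdkn2a lies at chr4:89294654-89294869, that before its p16INK4a start at chr4:89282193-89282442, that of Cdkn2b at chr4:89311040-89311282 and that of Ccne1 at chr7:38107535-38107740.
Cdkn2a, ARF start: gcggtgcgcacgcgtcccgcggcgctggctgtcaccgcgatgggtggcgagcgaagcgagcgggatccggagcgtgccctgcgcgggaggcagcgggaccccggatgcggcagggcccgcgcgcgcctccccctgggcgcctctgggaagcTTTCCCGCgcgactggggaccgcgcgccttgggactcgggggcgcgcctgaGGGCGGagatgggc
Cdkn2a, p16INK4a start: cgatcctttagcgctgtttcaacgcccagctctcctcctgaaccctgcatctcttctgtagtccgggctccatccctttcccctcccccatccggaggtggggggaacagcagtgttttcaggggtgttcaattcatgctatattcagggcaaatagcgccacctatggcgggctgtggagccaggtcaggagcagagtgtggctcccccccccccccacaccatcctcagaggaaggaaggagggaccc
Cdkn2b: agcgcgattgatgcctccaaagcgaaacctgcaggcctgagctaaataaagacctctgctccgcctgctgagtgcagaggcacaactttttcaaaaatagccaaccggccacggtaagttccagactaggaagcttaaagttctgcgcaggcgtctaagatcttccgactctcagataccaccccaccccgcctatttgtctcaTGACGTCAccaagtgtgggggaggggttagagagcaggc
Ccne1: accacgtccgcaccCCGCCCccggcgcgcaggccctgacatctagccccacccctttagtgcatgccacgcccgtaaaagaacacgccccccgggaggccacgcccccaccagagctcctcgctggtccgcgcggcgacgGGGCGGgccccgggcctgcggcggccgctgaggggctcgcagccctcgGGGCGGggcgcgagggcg

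PROMPTs are short-lived RNAs made upstream of and antisense to a gene, defined by the authors as lying within 1 kb of a start and away from other protein-coding transcripts. The median over the 23257 PROMPTs with a level above 0 was 0.815 pooled normalized reads. Of all 32253 PROMPTs, including those at 0, 11.5% reached 10. Of the 9 PROMPTs of the G1 genes, 7 lay above that median, which leaves out PROMPTs at 0, and 6 reached 10. There were 4 that lay above 90% of the PROMPTs with a level above 0. These highest PROMPTs belonged to Cdkn2b, Ccne2, Ccna2 and Cdkn1b, so they included an INK4 and a CIP/KIP inhibitor as well as 2 cyclins.

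The PROMPT of Cdkn2b was the highest of the 9, at 65.7 pooled normalized reads, above 97.5% of PROMPTs with a level above 0. That of Cdkn2a was the lowest, at 0.320, above 34.0% of the same PROMPTs, although Cdkn2a had the higher gene level per kb of exon. PROMPTs at 0 are left out of these ranks, so each rank would be higher over all 32253. These neighboring genes therefore differed 205-fold in PROMPT level. The Cdkn2a starts lie 12427 bases apart, and which of them its PROMPT value covers is not stated in the sources used here. The Cdkn2c PROMPT was also low, at 0.483, and lay 136-fold under that of Cdkn2b. If all 18 libraries entered the mean, the Cdkn2a and Cdkn2c values stand for 5.77 and 8.69 normalized reads in all, so the low end of these ratios rests on few reads.

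The E-type cyclins were ordered one way by gene level and the other way by PROMPT level. The Ccne2 PROMPT reached 52.2 pooled normalized reads, above 96.6% of PROMPTs with a level above 0, and the Ccne1 PROMPT 2.06, above 63.7%. Ccne2 thus exceeded Ccne1 25.3-fold in PROMPT level while Ccne1 exceeded Ccne2 2.40-fold in gene level per kb of exon.

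The remaining PROMPTs were closer together. Ccna2 had 36.1 pooled normalized reads, Cdkn1b 24.4, Ccnd1 11.5 and Ccnd3 10.5. The D-type cyclins Ccnd1 and Ccnd3 differed by 1.09-fold in PROMPT level. The near end of Bbs7, a gene on the same strand as Ccna2, lies 992 bases from the annotated Ccna2 start. The Ccna2 PROMPT is read from the opposite strand to both.

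**Figure D2:**
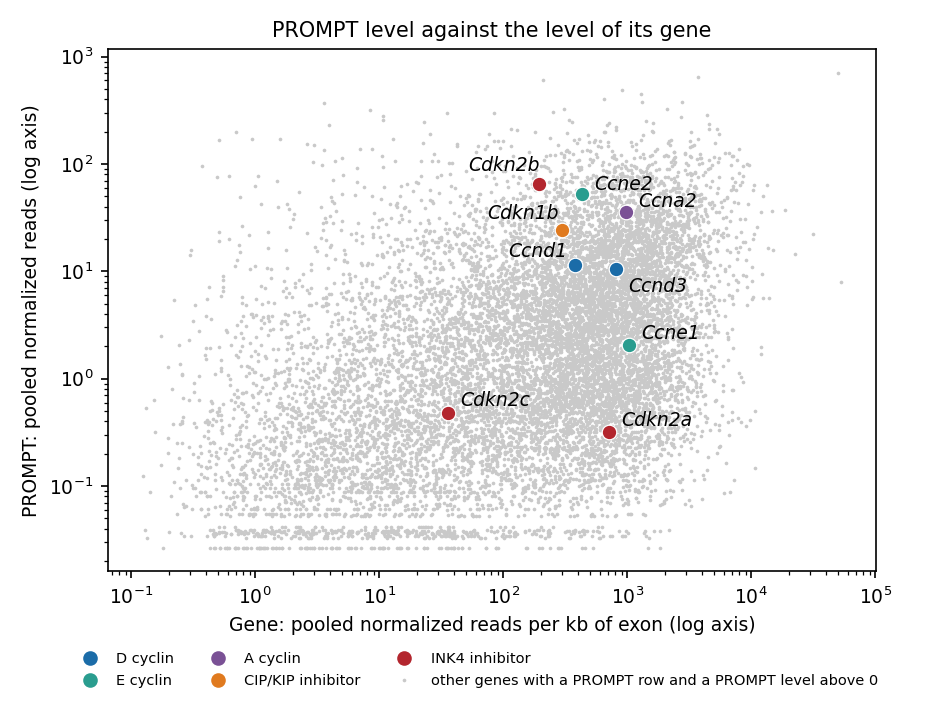
PROMPT level (pooled normalized reads) against the level of its gene (pooled normalized reads per kb of exon), both on log axes; large points are the 9 G1 genes with a PROMPT, colored by role, and gray points are the other genes with a PROMPT level above 0. Cdkn2b, at 65.7, and Ccne2, at 52.2, lie high for their gene level. Cdkn2a, at 0.320, lies low for its gene level, above 12.1% of the PROMPTs of the 1000 genes nearest in level.

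PROMPT and gene levels were set against each other as the PROMPT share, the PROMPT level per kb divided by the gene level per kb of exon. The values come from separate tables, and whether these were given the same size factors is not given in the sources used here, so a share is read only against the shares of other genes. Over 14394 symbols found in both tables with a gene level of at least 1, the median share was 0.760%. Of the 9 genes, 7 lay above it.

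Cdkn2b had the highest PROMPT share, 33.8%, above 93.7% of genes, followed by Ccne2 with 12.1% and Cdkn1b with 8.16%. Ccna2 had 3.70%, Ccnd1 3.05%, Cdkn2c 1.36% and Ccnd3 1.29%. Ccne1, with 0.200%, and Cdkn2a, with 0.0449%, lay below the median. The Cdkn2c call turned with the length used: with the gene level taken per kb of span its share was 3.19%, below the median of 4.68% on that scale, and it was the one gene of the 7 to fall below.

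PROMPT levels also follow gene levels across the genome, with a Spearman rho of 0.53 over these 14394 genes, given as a description because both come from the same libraries and genes are not independent replicates. Each PROMPT was therefore ranked among those of the 1000 genes nearest in level per kb of exon. Cdkn2b exceeded 97.7% of them, Ccne2 95.9%, Ccna2 91.0% and Cdkn1b 89.4%. Ccnd1 exceeded 78.8% and Ccnd3 71.7%. Cdkn2c, at 48.3%, stood in the middle, Ccne1 exceeded 39.7% and Cdkn2a 12.1%.

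The same genes were compared with the promoter sequences. The RefSeq table of 32851 promoters held 9 windows for 6 of the genes: 2 each for Ccnd3, Cdkn2a and Cdkn2c and 1 each for Ccne1, Cdkn1b and Cdkn2b. Ccnd1, Ccnd2, Ccne2 and Ccna2 had no entry. In the 250 bases before each start, both strands were searched for an E2F motif (TTTCGCGC, TTTGGCGC, TTTCCCGC or TTTGCCGC), a GC box (GGGCGG), a cAMP response element (TGACGTCA), a TATA box (TATAAA) and a CCAAT box (CCAAT). A match describes letters only, and the lack of a match does not show that a site is absent.

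The E2F motif was found in 1 of the 9 windows, against 1.86% of all promoters. It was TTTCCCGC before the ARF start of Cdkn2a, 99 to 92 bases upstream, and is in capitals above. The cAMP response element was found once, before Cdkn2b, 46 to 39 bases upstream, against 1.55% of all promoters. GC boxes were present in 6 windows, belonging to 5 genes, against 32.7% of all promoters. Ccne1 held the most, with 4 matches, of which 3 lie in the stretch printed above and are in capitals there.

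CCAAT boxes were present in 2 windows, those of Cdkn1b and of the downstream Ccnd3 start, against 33.8% of all promoters. No window held TATAAA, which 12.4% of all promoters did. The window before the p16INK4a start of Cdkn2a held none of the motifs, as its lower-case sequence shows, and neither did the downstream window of Cdkn2c.

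The paired starts of Cdkn2a also differed in CpG content. CpG observed over expected was 1.08 before the ARF start, with 40 CpG and 78.4% G and C, and 0.316 before the p16INK4a start, 12427 bases away, with 7 CpG and 60.0% G and C. The median of all promoters was 0.373 at 52.4% G and C, and 8 of the 9 windows lay above that CpG median. Cdkn1b had 1.08, Ccne1 0.947 and Cdkn2b 0.670. Before the upstream and the downstream start, Ccnd3 had 0.506 and 0.729 and Cdkn2c 0.782 and 0.525. Cdkn2b, with the highest PROMPT share, and Ccne1, with a low one, both lay above the CpG median. Cdkn2a, with the lowest share, had 1 window above it and 1 below. Whether CpG content goes with PROMPT share was not tested.

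**Figure D3:**
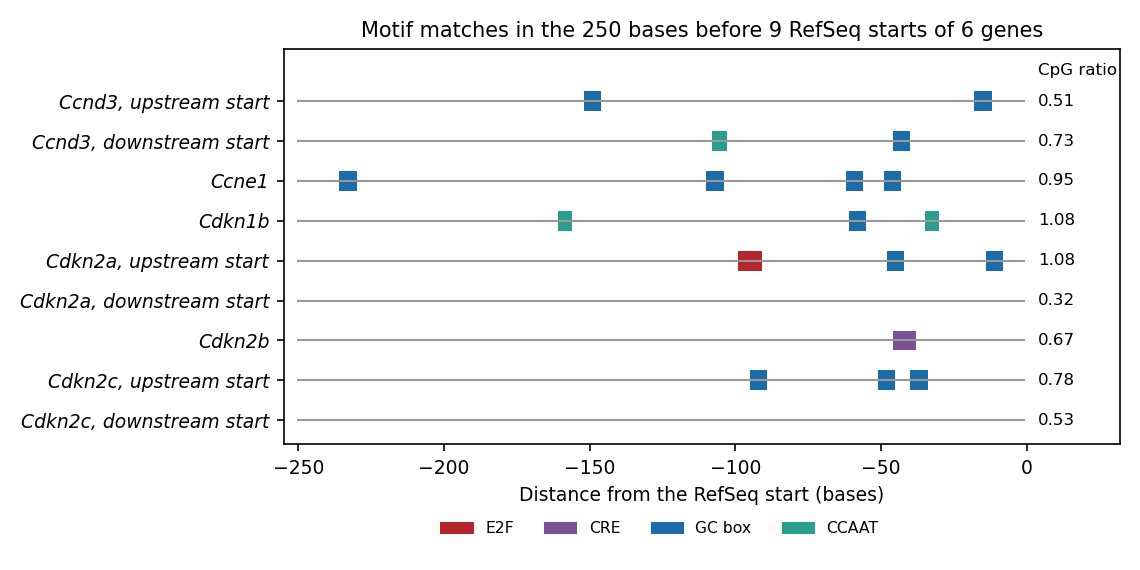
Motif matches in the 250 bases before each RefSeq start of the 6 genes with an entry; the x axis is the distance from the start in bases each row is 1 window, and the number at its right is CpG observed over expected. The E2F motif appears only before the ARF start of Cdkn2a, the cAMP response element only before Cdkn2b, and no match appears before the p16INK4a start of Cdkn2a.

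Levels of the other genes of the pathway were set beside those of the cyclins and inhibitors, with no test. Of 37 further genes, 34 lay above the gene median per kb of exon and 36 per kb of span. Their median per kb of exon was 1008, against 403 for the 10 cyclins and inhibitors and 120 for all genes. Per kb of span the medians lay closer, at 138 for the 37 genes, 93.6 for the 10 and 21.7 for all genes.

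The kinases Cdk2, Cdk4 and Cdk6, partners of the E-type and D-type cyclins, were all above the gene median on both scales. Per kb of exon they ran from Cdk2 at 314 over Cdk4 at 1270 to Cdk6 at 1864, whereas per kb of span Cdk6 was the lowest, at 138, and Cdk4 the highest, at 940. Cdk4, a target of the INK4 inhibitors, thus had a higher level than any of the 4 inhibitors on both scales. Cdk6 did so per kb of exon, but per kb of span it lay below Cdkn1b, at 267.

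Of the other inhibitors, Cdkn1a (p21) had the highest level of all 7 inhibitors listed on both scales, 3844 per kb of exon and 1400.4 per kb of span. Cdkn2d, with 115, and Cdkn1c, with 31.6, lay under the median per kb of exon, but both were above it per kb of span, with 60.4 and 23.8. All 3 pocket proteins, the substrates through which E2F is held in check, were above the median on both scales. Their order turned, from Rbl2 at 627 up to Rb1 at 1235 per kb of exon and from Rb1 at 52.3 up to Rbl2 at 88.1 per kb of span.

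All 10 E2F and DP factors were above the median on both scales, from E2f8 at 200 to E2f3 at 4326 per kb of exon and from E2f6 at 46.7 to E2f1 at 392 per kb of span. So were all 11 activators and turnover factors. Fbxo4 was the lowest of these on both scales, at 188 per kb of exon and 27.3 per kb of span. The highest was Ambra1, which serves the ubiquitin ligase that degrades D-type cyclins, at 4692 per kb of exon, but Skp1, at 511, per kb of span.

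Of the CDK-activating kinase subunits, Ccnh was the lowest on both scales, at 862 per kb of exon and 78.6 per kb of span. Mnat1 was the highest per kb of exon, at 2823, and Cdk7 per kb of span, at 329. Of the later cyclins and their kinase, Cdk1 was the highest per kb of exon, at 2574, and Ccnb1 per kb of span, at 1000.1. Ccna1, the germline counterpart of Ccna2, was the one below the median on both scales, at 24.4 and 4.47. Of the 37 genes, 30 had a PROMPT entry and 27 of these lay above the PROMPT median, with a median of 6.51 pooled normalized reads against 11.5 for the 9 G1 PROMPTs.

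The label of ES cells was checked against marker genes. All 10 ES cell markers lay above the gene median on both scales, with Utf1 the lowest, at 202 per kb of exon and 187 per kb of span. None of 5 primitive endoderm markers did on either scale, and 1 of 5 trophectoderm markers (Tfap2c, 292 per kb of exon) and 1 of 5 fibroblast markers (Pdgfrb, 174 per kb of exon) did on both.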

How the data were processed

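Libraries were grouped by cell line and treatment from the labels. Per the labels and the study's methods, the authors aligned reads to mm10 with STAR. The labels name HTSeq for counting and the methods featureCounts, with strand. The deposited signal values are DESeq2 base means, counts divided by size factors and averaged over libraries, for Gencode vM25 genes and for PROMPTs, without a filter on expression. The same tables hold the authors' own comparison (log2 fold change, its standard error, p-value and adjusted p-value), which was not used, so no depletion effect is given. Tables of eRNAs and other ncRNAs were not used, as their regions carry no gene or coordinates.

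Lengths came from Gencode vM21 on GRCm38, in which 42 genes had no match, using Python 3.11.15, pandas 2.3.3 and scipy 1.17.1. Levels were divided by the union of exons, or by gene span or longest transcript. Percentile and motif functions were tested on simulated data. All 10 genes were named by rule. In the fixed lists of other genes, those with the highest and lowest level per role could be named. Genes and lists were chosen with earlier results of these data known.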

Additional observations from a re-analysis of the deposited data

How the results depend on the processing

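No paired analysis was possible because each deposited level is 1 mean over libraries and carries no replicate, and for the same reason no library could be left out. Dividing by gene span in place of exon length reversed the order of neighbors in a family: the log2 ratio of Ccnd3 over Ccnd1 went from 1.11 to -1.23 and that of Cdkn2a over Cdkn2b from 1.88 to -0.46. Per kb of the longest transcript these ratios were 1.96 and 2.27. The other 5 ratios within families kept their sign. The number of genes above the gene median was 8 or 7, of PROMPTs above the PROMPT median 7 or 6, of PROMPT shares above their median 7 or 6 (without Cdkn2c per kb of span or at a gene level of at least 100) and of genes with an E2F motif 1 under each alternative for lengths, minimum levels or motif letters. The gene and PROMPT medians left out features at 0 under each setting. They would be lower with these features, and counts against such medians were not made. The vM21 lengths stand in for the authors' vM25 features. Levels mix control and SPT16-depleted libraries, so they are the state of neither, and PROMPTs of under 1 pooled normalized read rest on few reads.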
